A study of Homo sapiens with 12 samples.

Results

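Clone-named transcripts are genes that carry only the name of the sequenced clone they lie on, such as AC108210.1, because no symbol has been assigned to them. They were taken by name, as every gene called AC, AL or AP, 6 digits, a point and a number. That gave 21723 of the 60583 genes in the deposited tables, or 35.9%. The rule used the name alone, and the classes used position, so no measured value entered either. Both were set with earlier results of these data known. Nascent RNA was read by TT-seq in 12 libraries, 3 in each of 4 groups. U2OS is a human osteosarcoma cell line. U2OS-AsiSI is U2OS with AsiSI-ER, a bacterial restriction nuclease joined to an oestrogen receptor domain, and it was given 4-hydroxytamoxifen (OHT) for 1 hour, which moves the nuclease into the nucleus. Either line was transfected with siCtrl, a control siRNA, or siINTS11, an siRNA against INTS11, and harvested at 48 hours. The U2OS libraries carry no OHT label, so line and treatment cannot be told apart in any comparison of U2OS-AsiSI with U2OS. The labels do not say whether replicates came from separate cultures, so p-values measure the spread between these libraries.

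INTS11 is the nuclease subunit of Integrator, a complex that binds RNA polymerase II early in transcription and cuts the RNA it is making. Integrator forms the 3′ ends of small nuclear RNAs (snRNAs) and is also known to end transcription early at protein-coding genes, at enhancers and at the antisense transcripts that start beside promoters. TT-seq captures RNA made during a brief pulse of 4-thiouridine, after fragmentation, so the reads cover introns and unstable RNA that steady-state libraries lose. Many clone-named genes are long non-coding RNAs of this kind. They start back to back with a coding gene, run antisense through it, follow its end or lie alone.

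Library totals ran from 20704611 to 38065726 counts. Replicates of every group differed by more than sampling noise: chi-square over its degrees of freedom was 1.84 to 3.06 for pairs within a group. The targeted gene had 9.64, 11 and 9.83 CPM, counts relative to the scaled library total, in the U2OS-AsiSI siCtrl libraries and 9.01, 9.33 and 9.49 under siINTS11. Nascent reads of INTS11 were thus below siCtrl in all 3 libraries but missed the threshold there (log2 fold change -0.13, SE 0.08, adjusted p = 0.172). In U2OS they fell by 0.42 on the log2 scale (SE 0.09, adjusted p = 6.08e-05). TT-seq does not measure the mature mRNA that an siRNA acts on. Of 8 osteoblast markers 5 were above 1 CPM, among them RUNX2 (mean 292 CPM) and SPARC (211), while SP7 (0.238), TWIST1 (0.178) and COL1A2 (0.258) were near 0. Of 8 markers of other cell types 4 were above 1 CPM, and their summed level ran from 374 to 580 CPM, most of it RBFOX3 (391) and SNAP25 (72.8). The blood markers PTPRC and CD3E stayed at or under 0.256 CPM, and the part of such genes in the results was not tested.

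The sequences that show the main settings come first. The 3 promoter windows each hold the start of a clone-named transcript and of the coding gene it diverges from, read on the strand of the coding gene up to its RefSeq start, with the bases between both starts in capitals. AC005682.2 (TOMM7) and AC019069.1 (HK2) had the largest rises (log2 fold changes of 1.52 each), and AC011416.4 (MEGF10) the largest fall (-1.72), under siINTS11 in U2OS-AsiSI. They were taken by the rule for named transcripts from 98 tested divergent ones whose start lay in such a window. The search for windows to print left out a chromosome, so these ranks hold only for the chromosomes searched. The windows are chr7:22822850-22823099, minus strand, chr2:74833877-74834126, plus strand, and chr5:127290546-127290795, plus strand, from RefSeq on GRCh38.p14.
AC005682.2 and TOMM7: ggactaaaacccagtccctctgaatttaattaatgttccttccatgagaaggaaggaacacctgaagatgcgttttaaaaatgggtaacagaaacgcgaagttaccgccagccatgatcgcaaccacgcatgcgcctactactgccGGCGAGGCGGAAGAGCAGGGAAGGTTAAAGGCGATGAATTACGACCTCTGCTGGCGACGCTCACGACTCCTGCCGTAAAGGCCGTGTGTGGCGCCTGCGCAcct
AC019069.1 and HK2: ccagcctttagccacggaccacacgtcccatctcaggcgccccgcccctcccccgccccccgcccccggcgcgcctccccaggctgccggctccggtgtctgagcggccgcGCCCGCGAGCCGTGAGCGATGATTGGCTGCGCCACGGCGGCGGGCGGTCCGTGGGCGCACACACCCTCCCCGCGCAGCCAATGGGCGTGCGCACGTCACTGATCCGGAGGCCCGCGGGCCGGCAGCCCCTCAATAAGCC
AC011416.4 and MEGF10: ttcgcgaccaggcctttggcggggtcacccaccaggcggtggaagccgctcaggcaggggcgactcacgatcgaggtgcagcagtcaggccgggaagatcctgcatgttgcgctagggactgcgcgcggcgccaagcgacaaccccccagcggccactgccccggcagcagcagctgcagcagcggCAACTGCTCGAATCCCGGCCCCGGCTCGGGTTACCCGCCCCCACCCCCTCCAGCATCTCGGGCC
The gaps between the starts were 101, 139 and 64 bases. CG pairs numbered 22, 38 and 26 in the full windows of 300 bases, whose last 50 bases are not printed, against a median of 14 over all 35116 RefSeq start windows of that length. The following windows are the RefSeq starts of isolated transcripts, far from any named gene, with the transcribed bases in capitals. AL133166.1 (chr14:29391994-29392293, minus strand) rose and AC006372.3 (chr7:157465981-157466280, plus strand) fell. Each was the largest such change, by the same rule, among isolated transcripts with a RefSeq start on the chromosomes searched.
AL133166.1: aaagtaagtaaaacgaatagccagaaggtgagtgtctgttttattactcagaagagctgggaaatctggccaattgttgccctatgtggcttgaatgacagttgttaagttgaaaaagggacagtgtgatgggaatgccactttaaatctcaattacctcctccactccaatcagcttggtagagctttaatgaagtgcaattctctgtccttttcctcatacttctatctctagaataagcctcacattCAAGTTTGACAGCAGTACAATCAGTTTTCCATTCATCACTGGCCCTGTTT
AC006372.3: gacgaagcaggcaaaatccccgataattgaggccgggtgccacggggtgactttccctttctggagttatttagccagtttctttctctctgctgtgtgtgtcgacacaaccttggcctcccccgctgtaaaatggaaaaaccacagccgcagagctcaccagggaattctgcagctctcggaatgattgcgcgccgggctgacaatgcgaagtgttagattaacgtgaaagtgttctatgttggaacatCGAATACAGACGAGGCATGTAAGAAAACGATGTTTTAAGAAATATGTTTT
These windows held 1 and 16 CG pairs, and their GC contents were 40.3% and 48%, against a median of 58.7% over all windows. The last set is shown because it ties clone-named transcripts to a textbook target of Integrator. AC012447.1 spans RNU4ATAC, the U4atac snRNA of the minor spliceosome, and AC239799.2 spans RNVU1-6, a variant U1 snRNA. Capitals mark the letters AATTTNTGG, searched as the site on which Sm proteins assemble, in the snRNAs, and ATGCAAAT, an octamer known from snRNA promoters, at the end of exon 1 of AC012447.1 (chr2:121530616-121530775, plus strand).
AC012447.1: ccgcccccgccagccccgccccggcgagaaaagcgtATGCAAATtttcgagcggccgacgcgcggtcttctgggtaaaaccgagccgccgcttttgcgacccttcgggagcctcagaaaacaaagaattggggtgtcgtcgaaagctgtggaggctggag
RNU4ATAC: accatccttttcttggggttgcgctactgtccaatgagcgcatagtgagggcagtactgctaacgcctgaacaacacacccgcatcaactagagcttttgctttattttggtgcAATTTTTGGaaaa
RNVU1-6: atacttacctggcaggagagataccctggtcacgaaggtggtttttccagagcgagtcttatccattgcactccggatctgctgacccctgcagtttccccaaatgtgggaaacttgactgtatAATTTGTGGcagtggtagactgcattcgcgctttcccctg
RNU4ATAC lies at chr2:121530881-121531007 on the plus strand and RNVU1-6 at chr1:146052081-146052244 on the minus strand (GENCODE 29, GRCh38). The octamer began 229 bases before the first base of RNU4ATAC. On either strand it was present in 1.77% of all RefSeq start windows, or 623 of 35116.

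RefSeq lists a start within 10 bases, on the same strand, for 990 of the clone-named transcripts, and 404 of these were tested in U2OS-AsiSI. The median GC content of those 404 windows was 61%, with 20.5 CG pairs, against 58.7% and 14 over all windows. Among the 63 divergent ones it was 70.3% with 31 CG pairs, and among the 27 isolated ones 49% with 6. The letters TATAAA, on either strand, stood in 1 of the 63 divergent windows (1.59%) and in 11.5% of all windows. Windows of the 244 transcripts that rose under siINTS11 and of the 46 that fell had similar medians, 62.5% and 59.7% GC. Divergent clone-named starts thus lay in GC-rich sequence and isolated ones did not.

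The span from the first to the last annotated base had quartiles of 0.509, 1.73 and 8.89 kb, from 23 bases to 1418 kb. By position, 4544 of the 21723 transcripts (20.9%) overlapped a named gene on their own strand and 7249 (33.4%) overlapped only one on the other strand. A further 735 (3.38%) were divergent, starting within 1 kb of the start of a named gene on the opposite strand. Another 1350 (6.21%) began within 10 kb after the end of a named gene on their strand and are called downstream. There were 843 (3.88%) ending within 10 kb before a named gene on their strand, called upstream, and 1363 (6.27%) with a named gene within 10 kb in some other arrangement. The remaining 5639 (26%) were isolated, with no named gene within 10 kb.

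The counting left part of the set without any reads. All 9219 genes of the tables that were fully covered by other genes on their strand, 3856 clone-named transcripts among them, had 0 reads in all 12 libraries. All 3038 that lay inside a named gene on their strand were therefore silent in the tables, which says nothing about their transcription. Of the 17867 transcripts with bases of their own, 12013 had at least 1 read in some library and 5854 had none. Antisense transcripts were counted apart from their hosts. Among 863 that lay inside a host with over 0.05 reads per base, the median read density was 0.00316 of the host's. Single libraries held reads in 7741 to 8506 of the transcripts. Mean counts reached 10 in 4181 transcripts, 100 in 1343 and 1000 in 141.

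Levels differed between the position classes. Median levels in the U2OS-AsiSI siCtrl libraries, in CPM per kb of unshared span, were 0.695 ± 0.0354 for downstream and 0.529 ± 0.0264 for divergent transcripts (SD of the median over libraries, n = 3). They were 0.293 ± 0.0261 for upstream, 0.188 ± 0.0112 for antisense and 0.148 ± 0.00304 for same-strand overlapping transcripts, and 0.0812 ± 0.00533 for isolated ones. LINC-named genes had 0.0708 ± 0.00301, antisense-named genes 0.192 ± 0.00414 and protein-coding genes 0.963 ± 0.0102. Only genes tested and with at least 200 unshared bases entered these medians.

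Under siINTS11 the clone-named transcripts took a larger share of the reads. Their share of all counts was 2.48, 2.58 and 2.59% in the U2OS-AsiSI siCtrl libraries and 2.92, 2.98 and 3.02% under siINTS11. In U2OS it was 2.52, 2.56 and 2.51% against 2.94, 2.94 and 2.89%. The groups did not overlap in either line, and the mean rose by 0.423 and 0.39 percentage points. With 3 libraries against 3 no permutation test can pass 0.05, so none is given. Transcripts that overlap no named gene carried 0.943% of counts under siCtrl and 1.08% under siINTS11 in U2OS-AsiSI. The share of the divergent class was 1.47 times its siCtrl value in both lines. That of the downstream class was 0.994 times in U2OS-AsiSI and 0.968 times in U2OS, and its libraries overlapped between the siRNAs in U2OS-AsiSI.

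Transcript by transcript, 4200 could be tested in U2OS-AsiSI, of which 2039 rose and 775 fell. That is 67% past the threshold, an adjusted p under 0.05 in edgeR's quasi-likelihood test, against 68% of all 20441 genes tested, so the share that changed was near the background. The direction differed. Of clone-named transcripts 48.5% rose and 18.5% fell, whereas of all genes 35.4% rose and 32.6% fell, and of protein-coding genes 28.7% rose and 39.6% fell. In U2OS 2006 of 4336 rose and 810 fell, or 64.9% against 66.9% of all 20687 genes (34.5% higher, 32.4% lower). Median log2 fold changes were 0.36 and 0.31, beside 0.03 and 0.02 for all genes and -0.05 for protein-coding genes in both lines. LINC-named genes had 0.40 and 0.42, and antisense-named genes 0.40 and 0.42.

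Part of this comes with the filter on low counts. In U2OS-AsiSI 688 of the transcripts passed that filter only through the siINTS11 libraries and 156 only through siCtrl, and these had to differ. The 3254 that passed in both groups had a median of 0.28 (1533 higher, 667 lower), against -0.00 for all 18336 genes that did so. In U2OS the median of such transcripts was 0.22, against -0.01. Some transcripts named below passed in only 1 group of U2OS-AsiSI. Through siINTS11 alone these were AC068946.3, AC108134.1, AP003119.1, AP003555.1, AC019254.1, AC092640.1 and AC253572.2, which rose. Through siCtrl alone they were AC006372.3, AC069272.1 and AC098650.1, which fell. Their fold changes and p-values carry this selection. So do those of AC068946.3 in U2OS, where it also passed through siINTS11 alone. Among the named genes given beside them, LINC02177 passed through siCtrl alone in U2OS-AsiSI. Scaling by library totals alone moved the median of all genes from 0.03 to 0.22 in U2OS-AsiSI and from 0.02 to 0.22 in U2OS. With it 2423 transcripts were higher and 533 lower in U2OS-AsiSI, and 2473 higher and 540 lower in U2OS. Yeast reads from the added spike were not used here, so all values are relative to the other genes of a library.

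**Figure D1:**
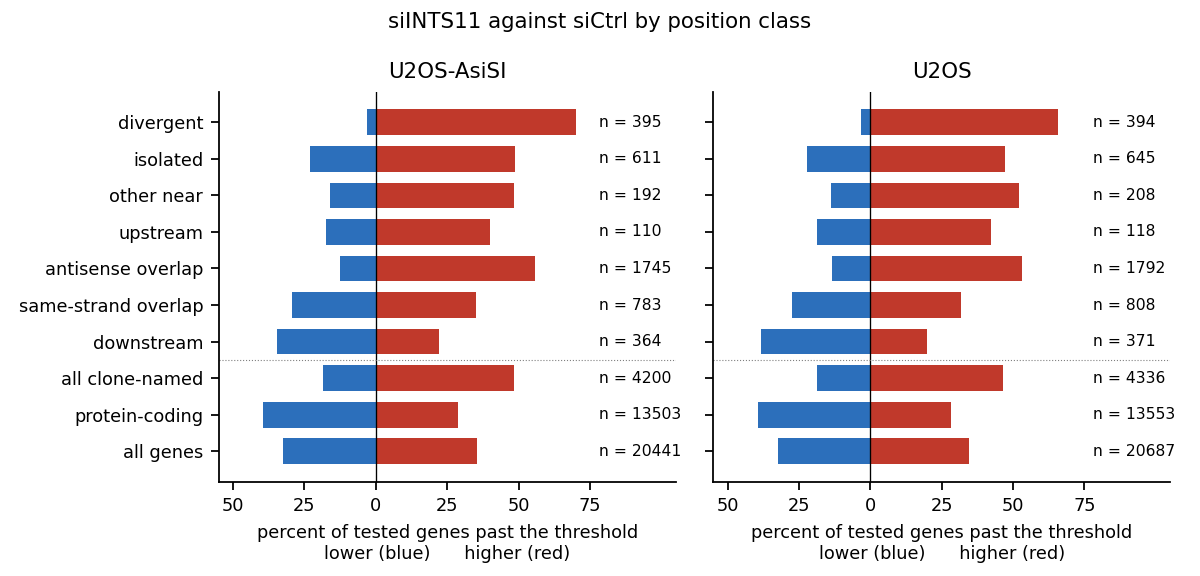
Share of tested genes past the threshold under siINTS11, in percent, to the right for higher and to the left for lower, in U2OS-AsiSI and U2OS. Rows are the position classes of clone-named transcripts, then all of them, protein-coding genes and all genes, with the number tested. Divergent transcripts are almost all on the higher side (277 higher and 12 lower in U2OS-AsiSI), and downstream ones are mostly on the lower side (81 and 126).

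Divergent transcripts were the class that moved most uniformly. In U2OS-AsiSI 277 of 395 rose and 12 fell, with a median log2 fold change of 0.58, and in U2OS 259 of 394 rose and 13 fell, with a median of 0.57. Among the 330 that passed the filter in both groups of U2OS-AsiSI, 234 rose and 12 fell, with a median of 0.53. AC108210.1 (chr4:41883060-41935075, minus strand), whose start lies 54 bases from that of TMEM33, had 0.814, 0.658 and 1.32 CPM under siCtrl and 4.16, 4.05 and 3.9 under siINTS11 in U2OS-AsiSI. Every siINTS11 library was well above every siCtrl library, and the log2 fold change was 2.14 (SE 0.18, adjusted p = 4.04e-12). TMEM33 itself, which encodes a membrane protein of the endoplasmic reticulum, did not pass the threshold (-0.03, SE 0.05, adjusted p = 0.631). AC007240.3 (chr2:10287800-10302485, minus strand), beside the start of HPCAL1, a neuronal calcium sensor gene, went from 1.53, 1.75 and 1.57 CPM to 6.5, 7.57 and 6.92. Its log2 fold change of 2.10 (SE 0.13, adjusted p = 3.94e-15) went with a smaller rise of HPCAL1, 0.57 (SE 0.05).

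Of the 12 divergent transcripts that fell in U2OS-AsiSI, 7 lay beside a gene that fell and 3 beside a gene that rose. AC011416.4 (chr5:127231977-127290731, minus strand) had 4.41, 4.26 and 3.65 CPM under siCtrl and 1.64, 0.749 and 1.23 under siINTS11, with no overlap between the groups. It fell by 1.72 on the log2 scale (SE 0.17, adjusted p = 3.25e-10), and MEGF10, a receptor gene of phagocytic cells that starts 65 bases away, fell by 1.25 (SE 0.05). AC027117.2, beside MTUS1, a tumour suppressor candidate, went from 7.26, 6.86 and 8 to 4.02, 4.14 and 3.97 CPM and fell by 0.86 (SE 0.10, adjusted p = 1.8e-08), while MTUS1 fell by 1.13 (SE 0.04). Over 365 divergent pairs with both tested in U2OS-AsiSI, the transcript had the higher log2 fold change in 328 (89.9%), and over 366 pairs in U2OS in 328 (89.6%). Medians in U2OS-AsiSI were 0.57 for the transcripts and -0.11 for their genes. In 111 pairs the transcript rose and the gene fell, in 62 both rose, in 7 both fell, and in 3 the transcript fell and the gene rose. Fold changes of both partners were weakly related (Spearman's correlation 0.20 over 365 pairs, a description, since both values of a pair come from the same libraries).

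**Figure D2:**
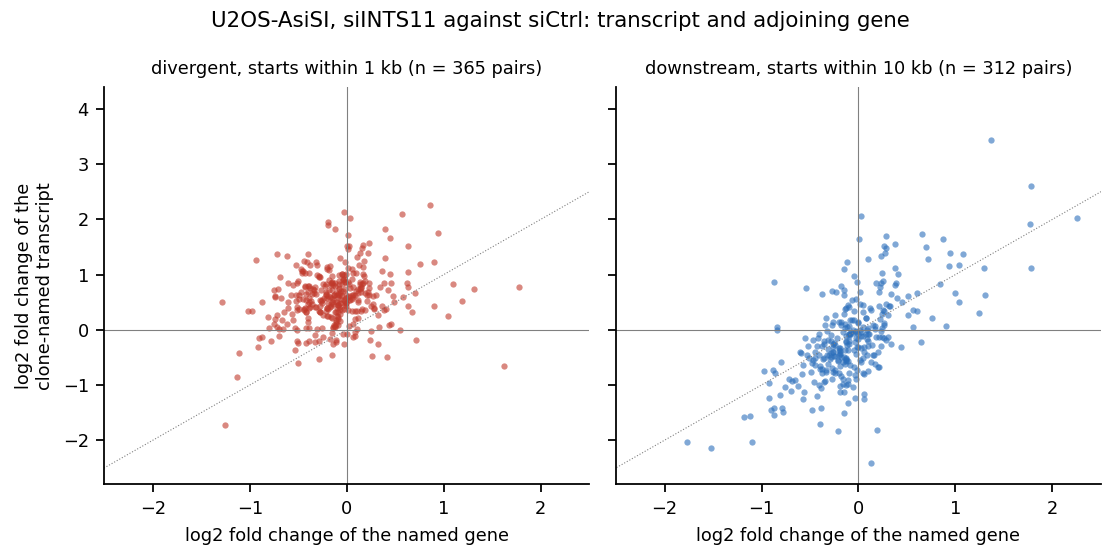
Log2 fold change (siINTS11 over siCtrl, U2OS-AsiSI) of each clone-named transcript, vertical axis, against that of its named gene, horizontal axis, for 365 divergent and 312 downstream pairs. The dotted line marks equal change. Divergent points lie above the line in 328 pairs whatever their gene did, while downstream points follow it.

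Antisense transcripts, the largest class, also leaned upward. In U2OS-AsiSI 973 of 1745 rose and 217 fell (median 0.49), and in U2OS 953 of 1792 rose and 240 fell (0.42). Of those that passed the filter in both groups, 749 of 1354 rose and 186 fell in U2OS-AsiSI (0.42). In U2OS 723 of 1383 such transcripts rose and 205 fell (0.36). The medians by part of the host are for all those tested in U2OS-AsiSI. Those that cover the start of the host gene had a median of 0.54 (414 of 681 rose, 79 fell). For those covering the host's end it was 0.43 and for those inside its body 0.47. AC068946.3 (chr2:219198640-219200034, minus strand), inside ZFAND2B, a gene for a proteasome-associated zinc finger protein, had 0.102, 0.094 and 0.146 CPM under siCtrl and 1.85, 2.38 and 2.19 under siINTS11 in U2OS-AsiSI. The same step was present in U2OS, from 0.109, 0.17 and 0.176 to 2.27, 2.32 and 2.4 CPM. The log2 fold changes were 4.19 (SE 0.30, adjusted p = 1.48e-13) and 3.86 (SE 0.27), and ZFAND2B had 0.02 (SE 0.12, adjusted p = 0.868). AC068946.3 had 3, 3 and 4 raw reads under siCtrl in U2OS-AsiSI and 3, 6 and 5 in U2OS. It entered both tests through its siINTS11 libraries, so the rise in U2OS carries the same selection. AC108134.1 (chr16:3032481-3039133, plus strand), which covers the start of BICDL2, rose from 0.17, 0.219 and 0.329 to 3.49, 3.04 and 3.56 CPM, by 3.82 (SE 0.23). BICDL2 had at most 3 reads in any library and was not tested.

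Where an antisense transcript fell, its host fell in 70 pairs and rose in 36. AC069272.1 (chr4:148146471-148208880, plus strand) lies inside NR3C2, the mineralocorticoid receptor gene, on the other strand. It had 1.9, 2.13 and 1.32 CPM under siCtrl and 0.384, 0.264 and 0.342 under siINTS11 in U2OS-AsiSI, with no overlap between the groups. Its log2 fold change was -2.41 (SE 0.26, adjusted p = 2.27e-09), and that of NR3C2 was -1.04 (SE 0.05). AC007255.1 (chr7:29514224-29563670, minus strand), which overlaps the end of CHN2 from the other strand, went from 3.77, 4.14 and 3.84 to 0.559, 0.837 and 0.993 CPM and fell by 2.29 (SE 0.18). CHN2 has no unshared bases in the tables and so no reads. Over 1420 pairs of antisense transcript and host, the transcript had the higher fold change in 1072 (75.5%). In 318 pairs it rose while the host fell, and in 285 both rose.

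Isolated transcripts changed in both directions. In U2OS-AsiSI 297 of 611 rose and 141 fell, with a median of 0.43 and quartiles of -0.26 and 1.13, and in U2OS 305 of 645 rose and 143 fell (median 0.37). Of those that passed the filter in both groups, 180 of 415 rose and 112 fell in U2OS-AsiSI, and their median was 0.19. In U2OS 177 of 433 rose and 120 fell, with a median of 0.12. With a mean count of at least 50 the median of the class was 0.11 in U2OS-AsiSI and 0.10 in U2OS. AP003119.1 (chr11:76759916-76768622, minus strand) had 0.305, 0.721 and 0.548 CPM under siCtrl and 3.98, 3.79 and 4.79 under siINTS11 in U2OS-AsiSI, a log2 fold change of 2.99 (SE 0.20, adjusted p = 3.73e-14). AP003555.1 (chr11:70014858-70021059, minus strand) followed with 2.80 (SE 0.20), from 0.509, 0.376 and 0.804 to 3.81, 3.52 and 4.21 CPM. AC006372.3, whose start window is printed above, showed the reverse, with 2.34, 1.88 and 1.28 CPM under siCtrl and 0.175, 0.264 and 0.0685 under siINTS11. It fell by 3.47 (SE 0.33, adjusted p = 1.56e-10), and in U2OS by 2.77 (SE 0.20). AC096639.1 (chr1:213731416-213794587, plus strand), a lincRNA of 63.2 kb, went from 4.75, 5.7 and 5.7 to 0.978, 0.969 and 0.479 CPM and fell by 2.75 (SE 0.18). In both, no siINTS11 library reached any siCtrl library.

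Of transcripts that end before a named gene on their strand, 44 of 110 rose and 19 fell in U2OS-AsiSI (median 0.26). Among the 75 that passed the filter in both groups, 34 rose and 12 fell (0.28). AC104024.3 (chr17:17028360-17035057, plus strand), which ends 7488 bases before MPRIP, went from 0.679, 0.846 and 1.13 to 3.74, 3.61 and 4.25 CPM and rose by 2.14 (SE 0.17), while MPRIP had 0.09 (SE 0.04, adjusted p = 0.062). AL445471.2 (chr1:24968423-24970865, minus strand), before RUNX3, a Runt family transcription factor gene, went from 0.475, 0.783 and 0.767 to 2.38, 2.77 and 2.98 CPM (adjusted p = 2.44e-10) beside a rise of RUNX3 by 0.59 (SE 0.04). AC092813.2 (chr1:76041691-76066349, plus strand) fell by 1.09 (SE 0.18) before ST6GALNAC3, a sialyltransferase gene that fell by 0.63 (SE 0.05). AC073288.2 (chr3:170410512-170418615, plus strand) also fell by 1.09 (SE 0.20), from 2.07, 1.97 and 1.94 to 0.838, 1.32 and 0.719 CPM. The 192 transcripts near a gene in other arrangements had 93 higher, 31 lower and a median of 0.44. Of those that passed the filter in both groups, 56 of 134 rose and 27 fell in U2OS-AsiSI (median 0.24), and 64 of 142 rose and 23 fell in U2OS (0.33). The extremes there were AC018978.1 (2.52, SE 0.17) and AC019254.1 (2.39, SE 0.24) on the higher side. On the lower side they were AL512306.3 (-1.57, SE 0.19), 605 bases from the end of LRRN2, which fell by 1.15 (SE 0.07), and AC093206.1 (-1.30, SE 0.19).

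**Figure D3:**
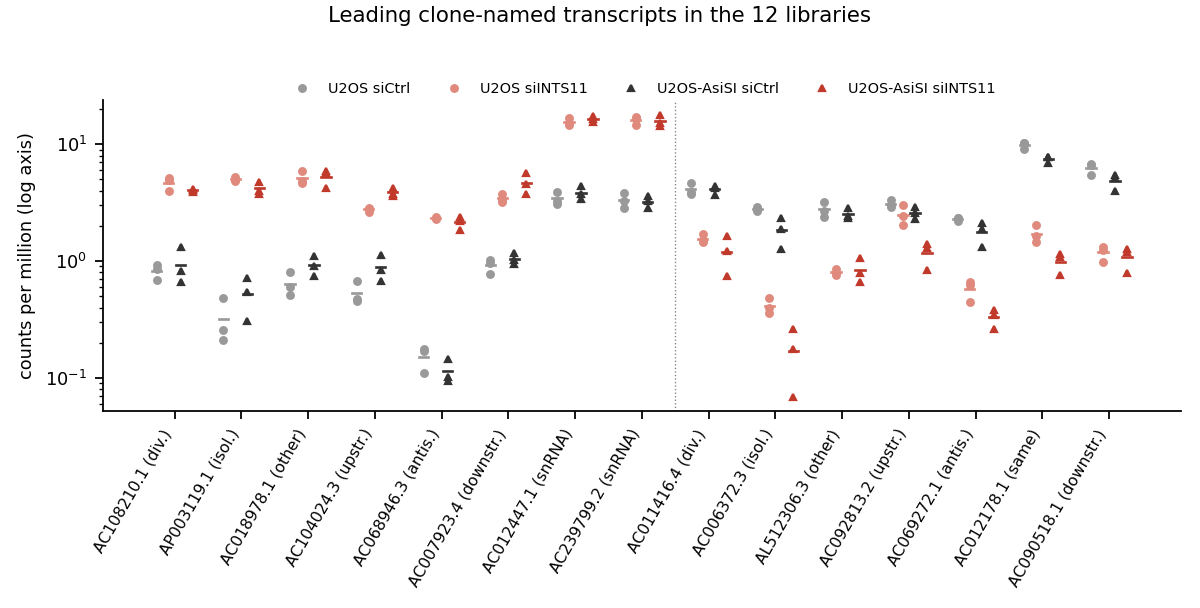
Level in CPM, on a log axis, of 8 clone-named transcripts that rose (left of the dotted line) and 7 that fell under siINTS11, with a point for each of the 12 libraries and a bar for each group mean. Brackets give the position class, and snRNA marks AC012447.1 and AC239799.2. The siINTS11 and siCtrl libraries are apart for every transcript in U2OS-AsiSI, and for every one but AC092813.2 in U2OS.

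Transcripts overlapping a named gene on their strand were counted only over bases they did not share, and as a class they showed no common direction. In U2OS-AsiSI 274 of 783 rose and 229 fell (median 0.06), and in U2OS 258 of 808 rose and 221 fell (0.05). Over those that passed the filter in both groups the median was 0.01 in either line. AC092640.1 (chr2:178828349-179007807, plus strand) rose by 3.01 (SE 0.20), from 0.373, 0.533 and 0.475 to 4.12, 2.91 and 4.01 CPM. AC012178.1 (chr16:9365540-9518325, plus strand), which overlaps LINC02177, fell by 2.92 (SE 0.15, adjusted p = 4.34e-17), from 6.92, 7.77 and 7.75 to 1.08, 1.14 and 0.753 CPM. LINC02177 fell by 3.20 (SE 0.35) over its unshared bases. With 4, 3 and 2 raw reads under siINTS11, LINC02177 entered that test through its siCtrl libraries, so its fall carries this selection. AC007221.1 (chr16:9541970-9614899, plus strand), the next transcript along the same strand, fell by 2.38 (SE 0.18).

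A small group of transcripts overlaps snRNA genes on their strand, and was looked up after the values were seen. With 39 snRNA genes transcribed by RNA polymerase II searched, 7 clone-named transcripts overlapped one. Of these transcripts 5 were tested in U2OS-AsiSI and 4 rose, and 4 were tested in U2OS and 3 rose. Over all genes 35.4% and 34.5% rose, and over all clone-named transcripts 48.5% and 46.3%. So few transcripts, picked afterwards, allow no comparison of these shares. AC012447.1 (chr2:121530422-121532705, plus strand) had 3.43, 3.73 and 4.39 CPM under siCtrl and 15.4, 17.5 and 16.6 under siINTS11 in U2OS-AsiSI, and 3.93, 3.11 and 3.28 against 14.6, 16.8 and 15.3 in U2OS. Its log2 fold changes were 2.11 (SE 0.09, adjusted p = 2.93e-18) and 2.16 (SE 0.10, adjusted p = 5.57e-23). Since RNU4ATAC, printed above, is covered entirely, it has no reads of its own, and the reads of AC012447.1 lie before or after it. AC239799.2 (chr1:146050441-146052244, minus strand) begins at the first base of RNVU1-6 and runs past its end. It had 2.82, 3.29 and 3.58 CPM under siCtrl and 14.4, 18 and 15.1 under siINTS11, with log2 fold changes of 2.29 (SE 0.10) and, in U2OS, 2.25 (SE 0.10). AL021155.5 (chr1:11907940-11914298, plus strand), over RNU5E-1, a U5 snRNA gene, rose by 1.60 (SE 0.08) and 1.27 (SE 0.07). AC253572.2, over RNVU1-19, rose by 1.33 (SE 0.40) in U2OS-AsiSI from under 1 CPM, with 9, 3 and 4 raw reads under siCtrl. AC245100.4, over RNVU1-3, had 0.11 (SE 0.17, adjusted p = 0.57). The loci of variant U1 genes hold near-identical copies, so reads may have been lost or split there.

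Downstream transcripts went the other way. In U2OS-AsiSI 81 of 364 rose and 126 fell (median -0.15), and in U2OS 73 of 371 rose and 142 fell (-0.24). With library totals alone as the scale the medians were 0.04 and -0.04, still below the median of all genes, 0.22 in either line. Of the 277 that passed the filter in both groups of U2OS-AsiSI, 52 rose and 108 fell (-0.22). AC090518.1 (chr15:56542952-56629592, minus strand) starts 589 bases after the end of ZNF280D, a zinc finger gene. It had 5.19, 5.45 and 3.98 CPM under siCtrl and 1.19, 0.793 and 1.27 under siINTS11 in U2OS-AsiSI, and 6.63, 5.46 and 6.84 against 1.33, 1.24 and 0.99 in U2OS. It fell by 2.14 (SE 0.17, adjusted p = 1.44e-12) and 2.42 (SE 0.14), and ZNF280D fell by 1.52 (SE 0.10) and 1.59 (SE 0.08). AC006960.3 (chr7:36463023-36504513, plus strand), 9232 bases after ANLN, the gene of the cytokinesis protein anillin, fell by 1.84 (SE 0.24) while ANLN fell by 0.22 (SE 0.05). The largest rises were those of AC007923.4 (chr17:31583162-31637543, plus strand), 2.16 (SE 0.17), and AC020904.2 (chr19:18022403-18032099, plus strand), 1.74 (SE 0.19). AC020904.2 lies 8301 bases after ARRDC2, an arrestin domain gene, which rose by 0.65 (SE 0.07).

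Unlike divergent transcripts, downstream ones moved with the gene before them. Over 312 pairs in U2OS-AsiSI Spearman's correlation was 0.62, and over 322 pairs in U2OS 0.58, against 0.20 and 0.23 for divergent pairs. In 83 pairs both fell, in 38 both rose, in 12 the transcript fell and the gene rose, and in 8 the reverse. A longer scale follows this with distance. All transcripts that overlap no named gene were sorted by the distance from the end of the nearest named gene upstream on their strand. In U2OS-AsiSI the medians were -0.04 under 1 kb (n = 62), -0.16 from 1 to 3 kb (118), -0.08 from 3 to 10 kb (217), 0.23 from 10 to 30 kb (262), 0.54 from 30 to 100 kb (420) and 0.56 from 100 kb on (593). In U2OS they were -0.15, -0.25, -0.18, 0.20, 0.52 and 0.52. These bins hold transcripts that passed the count filter only through their siINTS11 libraries. Over those that passed in both groups the U2OS-AsiSI medians were -0.03 (n = 50), -0.16 (86), -0.15 (172), 0.22 (206), 0.44 (298) and 0.42 (419), and the U2OS medians -0.22, -0.28, -0.20, 0.15, 0.36 and 0.38. Spearman's correlation with the fold change of that upstream gene was 0.72, 0.61, 0.61, 0.34, 0.17 and 0.20 over the same bins in U2OS-AsiSI. In U2OS it was 0.59, 0.48, 0.62, 0.33, 0.20 and 0.14. Where the upstream gene had fallen, transcripts 3 to 10 kb after it had a median of -0.54 (80 pairs, 50 lower and 6 higher), and those 100 kb or more after it a median of 0.46 (146 pairs, 27 lower and 72 higher). Pairs share their libraries, and the reads were not used here to ask whether transcription runs on from the gene into the transcript. The bins also mix position classes. Isolated transcripts lie only beyond 10 kb, while divergent ones can lie at any distance. Over those that passed the filter in both groups of U2OS-AsiSI, medians were 0.19 for isolated and 0.53 for divergent transcripts. Median span rose from 2.32 kb in the nearest bin to 11.2 kb in the farthest. How much of the trend comes with class or span was not tested.

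**Figure D4:**
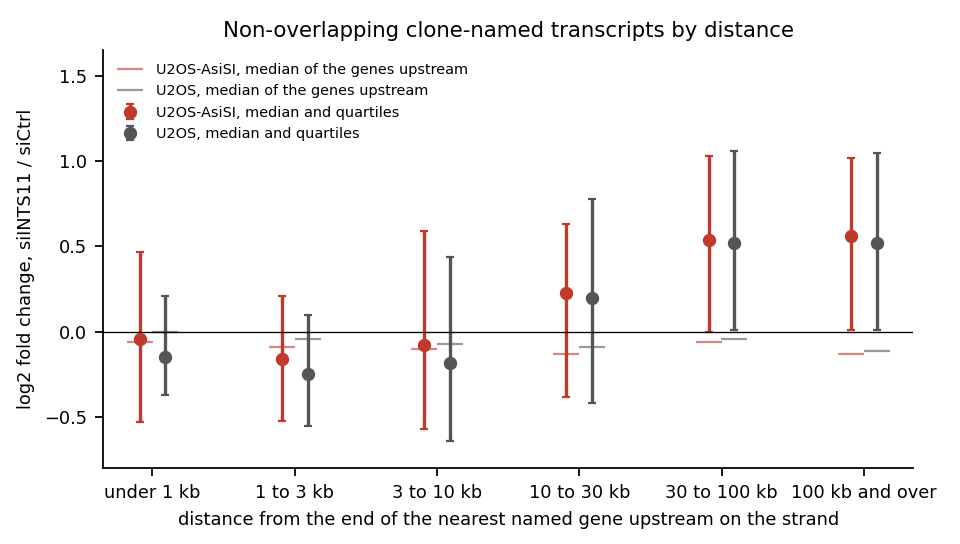
Median log2 fold change under siINTS11, with bars from the lower to the upper quartile, of clone-named transcripts that overlap no named gene, by distance from the end of the nearest named gene upstream on their strand. Short lines give the median of those upstream genes, which stays between -0.13 and 0.00. The transcripts' medians are below 0 within 10 kb and rise to 0.56 and 0.52 at 100 kb and over. Over those that passed the filter in both groups, the last values were 0.42 and 0.38. The bins mix position classes, divergent transcripts included.

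Length and level went with the change as well. By span the U2OS-AsiSI medians were 0.37 under 1 kb, 0.45 from 1 to 3 kb, 0.53 from 3 to 10 kb, 0.38 from 10 to 30 kb, 0.18 from 30 to 100 kb and 0.19 from 100 kb on. Protein-coding genes of the same spans had 0.19, 0.21, 0.19, 0.04, -0.11 and -0.29, so clone-named transcripts had the higher median in every bin. Only 31 protein-coding genes were under 1 kb. The span bins include transcripts that passed the count filter in only 1 group, and medians without these were not taken by span. Levels were taken from the siCtrl libraries of the other line, which the comparison did not use. Transcripts under 0.03 CPM per kb had a median of 0.74 (n = 837), and those of 1 CPM per kb or more 0.13 (n = 814). Protein-coding genes had 0.56 and -0.08 in these bins. Over genes that passed the filter in both groups the lowest and highest bins had medians of 0.57 (n = 459) and 0.15 (n = 765) for transcripts, and 0.38 and -0.08 for protein-coding genes. In U2OS the transcripts had 0.46 and 0.12 on that footing. In the highest bin 326 transcripts rose and 196 fell, or 40% and 24.1%, against 23.1% and 45.4% of protein-coding genes.

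Among transcripts of 1 kb or more, the 3 with the most reads per kb all rose in both lines. In U2OS 2 of them rose by little. AL606500.1 (chr1:154671593-154678345, plus strand), an isolated transcript of 6.75 kb, had 65.5, 67.8 and 73.9 CPM under siCtrl and 110, 131 and 113 under siINTS11 in U2OS-AsiSI (0.77, SE 0.06, adjusted p = 2.7e-13). AC132192.2 and AC091271.1 are antisense to the starts of ZNF143, a transcription factor gene that fell by 0.32 (SE 0.05), and of CLTC, the clathrin heavy chain gene (-0.09, SE 0.05, adjusted p = 0.0936). They rose by 0.50 (SE 0.08) and 0.54 (SE 0.09) in U2OS-AsiSI. In U2OS they rose by 0.22 (SE 0.08, adjusted p = 0.0138) and 0.26 (SE 0.08, adjusted p = 0.00612). There AC132192.2 missed the threshold in 3 of 12 alternatives (adjusted p = 0.0633 with DESeq2, 0.0518 without siCtrl replicate 2 and 0.0588 without siINTS11 replicate 3), and AC091271.1 in 1 of 12 (adjusted p = 0.0513 without siCtrl replicate 2). The 3 longest tested transcripts differed among themselves. AL008633.1 (1299 kb, chrX:128027322-129326707, minus strand) went from 38.3, 37.1 and 35.4 to 22.6, 19.3 and 21.5 CPM and fell by 0.79 (SE 0.06) and, in U2OS, by 0.77 (SE 0.05). AC098650.1 (1418 kb), which overlaps RBMS3, was counted over only 36.7 kb of unshared bases. It fell by 1.35 (SE 0.31) in U2OS-AsiSI, with 10, 3 and 13 raw reads under siINTS11. In U2OS it had -0.41 (SE 0.27, adjusted p = 0.182). AC007402.1 (1375 kb) had 0.43 (SE 0.21, adjusted p = 0.0686) in U2OS-AsiSI and rose by 0.81 (SE 0.20) in U2OS.

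The lines, which share no libraries, gave much the same picture. Of 4059 transcripts tested in both, 88.4% had the same sign, against 86.9% of all 20121 genes. Past the threshold in both were 2279, of which 1654 were higher in both, 618 lower in both and 7 opposite. Pearson's r between the lines was 0.91 and Spearman's correlation 0.90 over the 4059 transcripts, and 0.92 and 0.91 over all genes. As a description across transcripts these carry no p.

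**Figure D5:**
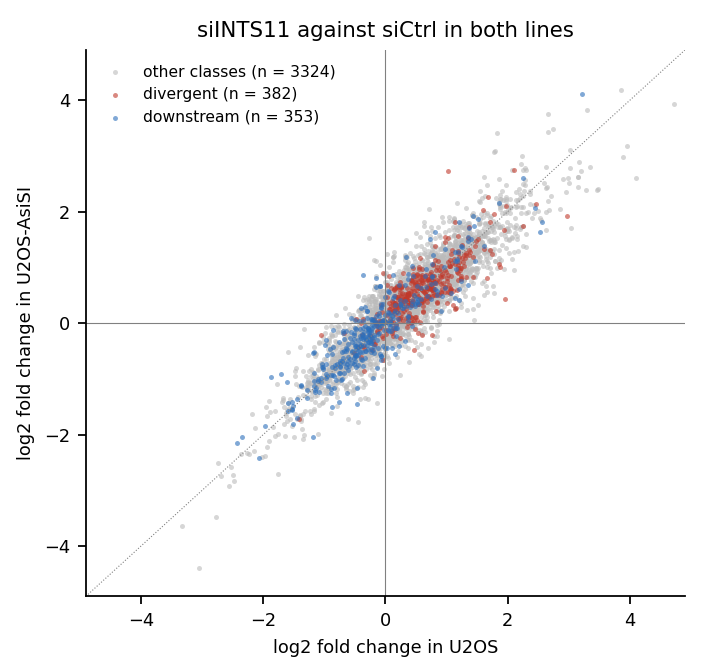
Log2 fold change of 4059 clone-named transcripts under siINTS11 in U2OS-AsiSI, vertical axis, against U2OS, horizontal axis, with 382 divergent and 353 downstream transcripts in colour and equal change as a dotted line. Divergent points gather above 0 in both lines and downstream points mostly below.

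A difference of the siINTS11 effect between the lines passed the threshold for few transcripts. It did so for 74 of 4706, or 1.57%, against 3.87% of all 21521 genes, with 16 more positive and 58 more negative in U2OS-AsiSI. Of all genes 0.762% were more positive and 3.1% more negative. The split was 30 and 19 at a mean count of at least 50 and 31 and 31 without a filter. With median-of-ratios size factors it was 16 and 26. The median difference of all genes moved as well, from -0.05 to 0.02, 0.01 and -0.02 in that order. Whether filter or scale changed the split was not tested. DESeq2 passed 29. Leaving out U2OS siCtrl replicate 2, U2OS-AsiSI siINTS11 replicate 1 or U2OS-AsiSI siCtrl replicate 3 gave 84, 75 and 65, and leaving out any of the other 9 libraries gave 24 to 42. AL353740.1 (chr10:108547975-108561815, minus strand) had 1.12, 1.66 and 1.72 CPM under siCtrl and 1.43, 1.1 and 0.788 under siINTS11 in U2OS-AsiSI, which overlap, against 1.93, 1.39 and 1.66 and 2.33, 2.75 and 2.11 in U2OS, which do not. The difference was -0.98 (SE 0.28, adjusted p = 0.0409). AC092718.1 (chr16:81077319-81078861, plus strand), divergent from C16orf46, rose in U2OS-AsiSI (0.90, SE 0.17), from 1.12, 1.28 and 1.5 to 2.24, 2.29 and 2.71 CPM. In U2OS it had -0.03 (SE 0.19, adjusted p = 0.893), and the difference was 0.90 (SE 0.25, adjusted p = 0.0338). AL606500.1 rose more in U2OS-AsiSI than in U2OS, by 0.38 (SE 0.08, adjusted p = 0.00586).

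Without siINTS11, U2OS-AsiSI given OHT and U2OS differed in 784 of 3970 clone-named transcripts, 369 higher in U2OS-AsiSI and 415 lower. That is 19.7%, against 34.9% of all 19935 genes, of which 17.8% were higher and 17.2% lower. Scaling by library totals turned the split to 495 higher and 278 lower, DESeq2 passed 423 in all, and leaving out single libraries gave 530 to 774. Of divergent transcripts 55 of 359 were higher and 7 lower (median 0.17), beside a median of 0.01 over all genes. Of clone-named transcripts of 100 kb and over, 31 of 610 were higher and 136 lower. Protein-coding genes of that span leaned the same way, with 199 of 3220 higher and 1365 lower. AC026461.3 (chr16:56609501-56611375, minus strand), whose end lies 4 bases from the end of the metallothionein gene MT2A on the other strand, had 2.07, 2.79 and 2.89 CPM in U2OS-AsiSI and 0.874, 1.19 and 1.34 in U2OS. It was 1.18 higher on the log2 scale (SE 0.18, adjusted p = 5.98e-06), and MT2A 0.23 (SE 0.08, adjusted p = 0.0247). AC025180.1 was 1.07 higher (SE 0.19). AL133456.1 (chr22:27563839-27573573, minus strand), isolated, had 0.645, 0.658 and 0.585 CPM in U2OS-AsiSI and 2.19, 1.75 and 1.55 in U2OS, a log2 difference of -1.52 (SE 0.22, adjusted p = 1.49e-06). AL512328.1, over part of the angiotensinogen gene AGT, was 1.01 lower (log2 difference -1.01, SE 0.16). Line and OHT cannot be told apart in any of these values.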

How the data were processed

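Counts of nascent RNA per gene were analysed for 12 TT-seq libraries. The authors deposited raw read counts per gene over the whole gene span, per the file headers in the column layout of featureCounts. Trimmomatic 0.36, STAR 2.7, deepTools, featureCounts and the build hg38 are named in the submitters' processing notes, and their settings are not given in the sources used here. From the values, reads that overlapped more than 1 gene on a strand were left uncounted and strand was used. Columns without a sample numbered 0. Position classes were computed from the deposited coordinates against all genes without a clone name, in the order same-strand overlap, antisense overlap, divergent, downstream, upstream, other within 10 kb and isolated. GENCODE 29 types were used for the 14717 transcripts at the same position there. CPM were scaled by TMM.

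The test was edgeR's quasi-likelihood F test, two-sided (edgeR 4.0.16, R 4.3.3, with filterByExpr, TMM and robust glmQLFit). The fit used the 6 libraries compared, or all 12 for the difference between lines. An SE is the size of the log2 fold change divided by the root of F. Adjustment was Benjamini-Hochberg across every gene tested, with a threshold of 0.05. Transcripts named are, by class, the 2 largest rises and falls in U2OS-AsiSI that passed, had libraries apart and averaged at least 50 reads in the higher group. To these were added the 3 with most reads per kb among those of 1 kb or more, and the 3 longest tested. The leaders of the comparisons between lines were added too. Partner genes are given beside them. The transcripts over snRNA genes, and the start windows printed, were chosen after their values were seen. The transcripts, classes and lists were chosen with earlier results of these data known. Same-numbered replicates did not deviate together, so no pairing was used. Alternatives were other size factors, filters, DESeq2 1.42.0, class windows, a replicate block and each library left out. In data simulated on the U2OS-AsiSI comparison (20148 genes, 200 changed) 82.7% of 2-fold changes were recovered and 5.6% of calls were false. For U2OS (20389 genes) these were 75.8% and 10.4%, for siCtrl (19662) 82.1% and 8.59%. On the difference between lines (21309) they were 45.5% and 10.3%. Only 200 genes changed in each simulation, whereas under siINTS11 68% of all genes passed in U2OS-AsiSI and 66.9% in U2OS. The simulated rates need not hold where so many genes change.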

Additional observations from a re-analysis of the deposited data

Results flagged for a closer look

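Named clone-named transcripts whose siINTS11 effect differed between U2OS-AsiSI and U2OS, by the interaction test, numbered 4. The log2 differences, U2OS-AsiSI minus U2OS, were -0.98 for AL353740.1 (adjusted p = 0.0409), 0.90 for AC092718.1 (0.0338), -0.55 for AC027117.2 (0.0292) and 0.38 for AL606500.1 (0.00586). AL353740.1 missed the threshold in 12 of 16 alternatives (adjusted p from 0.0153 to 0.19), AC092718.1 in 8 of 16 (0.0211 to 0.116) and AC027117.2 in 10 of 18 (0.0108 to 0.134). AL606500.1 passed in every alternative run. MTUS1, the gene beside AC027117.2, differed in the same direction (-0.35, SE 0.06, adjusted p = 0.000841). Line and OHT treatment cannot be told apart in these differences.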

How the results depend on the processing

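Median log2 fold changes of the set and of its 7 classes under siINTS11 kept their sign under every alternative run, apart from that of the downstream class in U2OS-AsiSI, which was 0.04 with library totals alone. A mean count of at least 50 left 1571 transcripts past the threshold in U2OS-AsiSI and 1613 in U2OS, of fewer tested. For the difference between lines the counts were 29 with DESeq2, 44 with library totals, 49 with transcripts averaging at least 50 reads, 42 with median-of-ratios size factors and 46 with the replicate block. DESeq2 gave 423 for the siCtrl comparison. The share difference was 0.14 (U2OS-AsiSI) and 0.116 points (U2OS) over transcripts overlapping no named gene. The median log2 fold change was 0.55 and 0.51 with library totals, 0.28 and 0.22 for transcripts that passed the filter in both groups (this, and its use for classes and bins, was chosen after seeing the data), 0.32 with no count filter in U2OS-AsiSI and 0.27 in U2OS at 50 reads or more on average. Leaving out each library gave 2565 to 2824 and 2635 to 2855 transcripts, 24 to 84 for the difference between lines, 530 to 774 for siCtrl, medians of 0.34 to 0.42 and 0.29 to 0.35, and share differences of 0.39 to 0.451 and 0.38 to 0.405 points, U2OS-AsiSI first. Where no reason is given the cause was not tested. The replicate block, run as a check of the pairing, gave 2820, 2756 and 718 transcripts in the other comparisons. Same-numbered libraries correlated between -0.17 and 0.22, not over 0.1 in every pair. Named transcripts kept their direction in all 1047 recomputed values, and 43 of these, in 8 results, missed the threshold.

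Of 12013 transcripts with a read, 4181 averaged 10 or more. Counts exceeded 0.1 per unshared base in 160 tested transcripts, without which the medians were 0.36 and 0.31. Of tested transcripts 456 (10.9%) had another tested one within 10 kb on their strand, so members are not independent.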

Other observations

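The GENCODE 29 type, available for transcripts at the same position there, split the set further. In U2OS-AsiSI 573 of 993 annotated as antisense rose and 111 fell (median log2 fold change 0.50), and 411 of 834 annotated as lincRNA rose and 161 fell (0.38). Processed pseudogenes, copies of mRNAs pasted back into the genome, did not share this direction, with 17 of 73 higher, 20 lower and a median of -0.17 in both lines (17 of 82 higher and 27 lower in U2OS). Clone-named genes annotated as protein-coding resembled other coding genes, with 50 of 230 higher, 84 lower and a median of -0.12. Reads from a pseudogene and its parent gene can be mistaken for each other, so single pseudogenes are uncertain. Transcripts absent from GENCODE 29 had a median of 0.41 (400 of 809 higher, 149 lower), and those it places elsewhere 0.41.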
